A study of Mus musculus with 2 samples.

Results

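This section describes 10 long noncoding RNAs in the nuclei of mouse inguinal white adipose tissue (iWAT), the subcutaneous fat of the groin: Malat1, Neat1, Kcnq1ot1, Meg3, Snhg11, Lockd, A930028N01Rik, Gm42906, 9330175M20Rik and 9630028H03Rik. They are 10 of the 31053 genes of the deposited matrices, and all of them had a row in both. They were chosen by their summed UMI counts in each cell class and library of these same data, so the levels below are a description of that choice and no test was made of them. Each captured molecule carries a unique molecular identifier (UMI) and is counted 1 time, and each level is a sum of UMI counts over the nuclei of a class, given as a percent of all UMIs of that class or as counts scaled to a common total (CPM). The aim was to separate RNAs carried by nuclei of every class from RNAs carried mainly by adipocytes, and to set both libraries side by side for each.

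The study asked how loss of the long noncoding RNA Lexis in fat changes the cells of iWAT. Single-nucleus RNA-Seq (snRNA-Seq) was run on male mice of C57BL/6 background fed a Western diet. One group was Lexis fl/fl without Cre (Lexis-AdWT), and the other was Lexis fl/fl with adiponectin-Cre (Lexis-AdKO), which deletes in adipocytes and leaves the other cells of the depot with the gene. Both groups thus carried the floxed allele, the sources used here give an age for most mice of the study but not for these, and iWAT of 3 mice per group was pooled, without the lymph node, into 1 library. With 1 library per genotype there was no replicate and no test. The 95% intervals given below cover counting error only and hold nothing of the spread between mice or preparations. The deposited file names carry the opposite genotype to the labels for both libraries, and Lexis was not analysed here. For this reason each library is named by its label, as the one labelled WT or the one labelled KO, and each direction holds for the labels as given.

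Long noncoding RNAs are transcripts that are not translated, and many of them stay in the nucleus. Malat1 gathers in nuclear speckles, the stores of splicing factors, and Neat1 is the scaffold on which paraspeckles are built. Kcnq1ot1 and Meg3 are imprinted RNAs, made from the paternal and the maternal chromosome respectively, and Snhg11 is the host transcript of small nucleolar RNAs. Lockd is transcribed downstream of Cdkn1b, the gene of the cell cycle inhibitor p27. Gm42906 and the 3 genes named by Riken clone numbers have no function stated here.

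After filtering, the library labelled WT kept 3503 nuclei with a median of 1195 UMIs, and the library labelled KO kept 2852 nuclei with a median of 3879 UMIs. The classes named from marker genes held 418 and 895 adipocyte nuclei, 297 and 785 adipogenic stem and precursor cells (ASPC, here with fibroblasts), 431 and 843 myeloid, 2101 and 110 lymphocyte, and 94 and 122 endothelial nuclei in the libraries labelled WT and KO, in that order. The library labelled KO also held 44 mural and 52 myocyte nuclei, and the library labelled WT 10 mural nuclei, which are not described. The classes came from 18 clusters that mostly held nuclei of 1 library: WT adipocytes were in cluster 4 and 890 of the 895 KO adipocytes in cluster 1. All 14 adipocyte markers were higher in adipocytes than in other nuclei of the same library beyond counting error, with a summed level of 16448 against 920 CPM labelled WT and of 27138 against 1983 CPM labelled KO. The same markers were used to name the class, so their higher level follows from the naming and is no check of it. The libraries shared 12 barcodes, of which 10 were kept.

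Positions and promoter sequences were taken from RefSeq for GRCm38.p6, the build named mm10 in the submitters' processing notes. Malat1 lies at chr19:5795690-5802672 on the minus strand, and Neat1 at chr19:5824708-5845480, 22035 bases away. Kcnq1ot1 (chr7:143213111-143296547, minus strand) lies inside the span of the potassium channel gene Kcnq1. Meg3 (chr12:109540996-109571729, plus strand) overlaps the span of Rtl1, and Snhg11 (chr2:158375713-158386474, plus strand) holds 2 small nucleolar RNAs. Lockd lies at chr6:134929092-134951718 on the plus strand. A930028N01Rik lies at chr19:40296882-40305786 on the plus strand. The span of 9330175M20Rik (chr1:51218386-51333779, minus strand) holds Cavin2, a coat protein of caveolae, and 9630028H03Rik lies at chr2:135580530-135583220 on the minus strand. All 9 were annotated as long noncoding RNAs, and Gm42906 and Neat1 had no promoter entry.

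Promoters of 300 bases, from 250 before to 50 after the annotated start, are shown for the RNA with the most counts (Malat1), the stromal member (Meg3, the first of its 2 starts), a pair of adipocyte RNAs (Snhg11 and A930028N01Rik) and 1 RNA found almost wholly in the library labelled KO (9330175M20Rik). Capitals mark CG dinucleotides. The windows are chr19:5802623-5802922 (minus strand), chr12:109540746-109541045 (plus), chr2:158375463-158375762 (plus), chr19:40296632-40296931 (plus) and chr1:51333730-51334029 (minus).
Malat1: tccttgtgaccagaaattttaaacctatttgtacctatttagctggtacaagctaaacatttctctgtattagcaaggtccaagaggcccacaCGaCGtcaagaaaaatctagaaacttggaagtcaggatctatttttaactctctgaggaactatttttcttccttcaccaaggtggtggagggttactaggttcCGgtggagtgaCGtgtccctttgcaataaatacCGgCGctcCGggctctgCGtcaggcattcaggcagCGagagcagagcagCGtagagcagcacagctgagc
Meg3: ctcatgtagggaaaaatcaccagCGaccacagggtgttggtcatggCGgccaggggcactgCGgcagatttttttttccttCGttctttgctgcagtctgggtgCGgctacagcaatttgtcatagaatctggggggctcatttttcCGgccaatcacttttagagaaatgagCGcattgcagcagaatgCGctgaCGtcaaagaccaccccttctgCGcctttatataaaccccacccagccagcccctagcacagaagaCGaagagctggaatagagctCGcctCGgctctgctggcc
Snhg11: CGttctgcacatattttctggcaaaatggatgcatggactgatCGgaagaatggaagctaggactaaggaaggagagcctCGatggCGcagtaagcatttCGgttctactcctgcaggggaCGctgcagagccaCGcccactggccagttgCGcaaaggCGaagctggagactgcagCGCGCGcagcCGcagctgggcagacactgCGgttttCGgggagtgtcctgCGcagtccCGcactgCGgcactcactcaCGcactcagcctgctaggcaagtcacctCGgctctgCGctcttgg
A930028N01Rik: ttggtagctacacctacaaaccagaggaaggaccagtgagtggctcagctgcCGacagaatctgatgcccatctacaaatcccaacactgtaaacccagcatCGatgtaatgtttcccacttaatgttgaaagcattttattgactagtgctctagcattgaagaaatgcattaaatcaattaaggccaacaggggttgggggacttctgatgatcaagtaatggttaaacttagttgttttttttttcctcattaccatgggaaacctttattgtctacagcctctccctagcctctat
9330175M20Rik: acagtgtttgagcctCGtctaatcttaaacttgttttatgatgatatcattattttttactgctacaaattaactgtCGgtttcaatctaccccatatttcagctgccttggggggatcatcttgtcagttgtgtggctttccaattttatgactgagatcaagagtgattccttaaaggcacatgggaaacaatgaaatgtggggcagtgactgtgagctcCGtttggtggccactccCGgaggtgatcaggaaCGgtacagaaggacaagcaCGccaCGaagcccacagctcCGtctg
The Snhg11 promoter held 21 CG dinucleotides and a GC content of 60.0%, more CG than 75.2% of the 32851 promoters of the table, whose median was 7. The A930028N01Rik promoter held 2 and a GC content of 41.7%, more than 14.1% of all promoters. Malat1 held 10, Meg3 held 13 and 9330175M20Rik held 8. The other windows held 9 (Kcnq1ot1), 13 (Lockd) and 3 (9630028H03Rik).

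The 4 motifs of the search were looked for on both strands of these windows, and a match is given as letters found and not as a bound site. The nuclear receptor site AGGTCA was in 16.3% of all promoters, the C/EBP pattern TTGCNNAA in 10.8%, the EBF palindrome CCCNNGGG in 13.7% and the TATA box TATAAA in 13.6%. Snhg11 held 1 C/EBP match, TTGCGCAA, with its first base at -102 from the start. The first Meg3 window held TATAAA at -25 and an overlapping match on the other strand, written TTTATA here, at -29. A second Meg3 window, at a start further downstream, held TGACCT at -141 and CCCAAGGG at -231. None of these letters was in the windows of Malat1, Kcnq1ot1, Lockd, A930028N01Rik, 9330175M20Rik or 9630028H03Rik.

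Malat1, the speckle RNA, had counts in every class and was highest in fat cells among the main classes. In the library labelled WT it made up 32.4% (95% interval 32.4 to 32.5) of the UMIs of adipocytes, 26.1% of ASPC, 21.0% of myeloid, 14.2% of endothelial and 11.1% of lymphocyte nuclei. The library labelled KO gave 19.9% of adipocyte, 11.3% of ASPC, 8.08% of mural, 5.40% of endothelial, 4.94% of myeloid and 4.44% of lymphocyte UMIs, and 21.9% in myocyte nuclei. Adipocytes and ASPC thus led the 5 shared classes in both libraries, and every neighbour in either order differed beyond counting error.

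**Figure D1:**
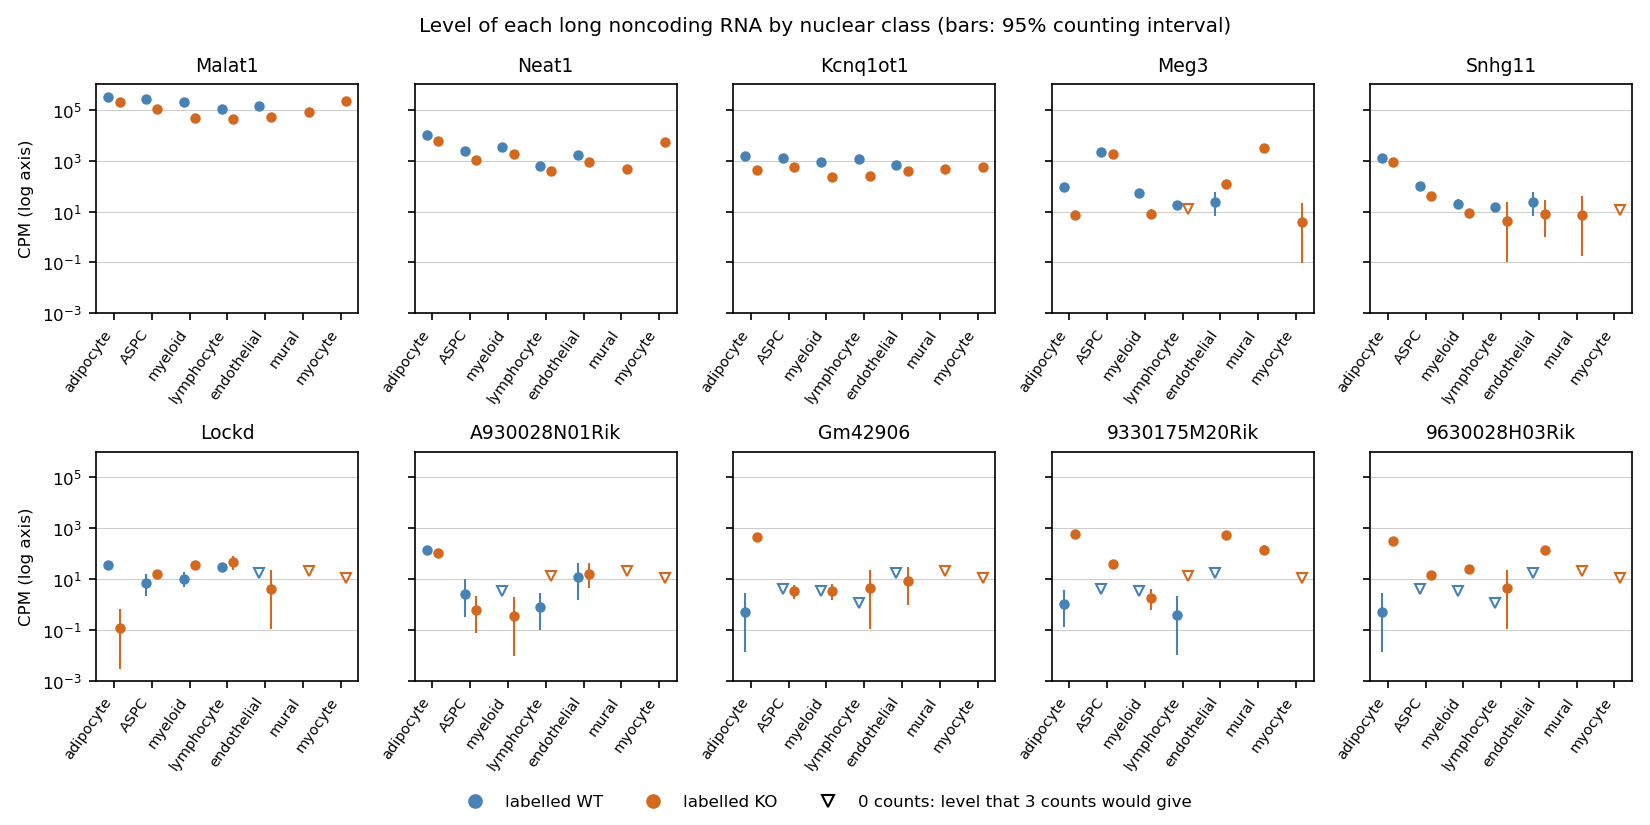
Level of each of the 10 RNAs by cell class, in CPM on a log axis, with a point for each library, bars for the exact 95% counting interval and open triangles, for classes at 0 counts, at the level that 3 counts would give. Malat1, Neat1 and Kcnq1ot1 have points in every class, whereas Gm42906 stands at 446 CPM in adipocytes of the library labelled KO and at 0 to 1 counts in every class of the library labelled WT.

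Single nuclei also had adipocytes and ASPC at the head of the 5 shared classes for Malat1, but the lower classes changed places. The median adipocyte nucleus of the library labelled WT gave 30.9% of its UMIs to Malat1 (quartiles 21.5 and 40.7), against 10.5% in lymphocyte nuclei. The median adipocyte nucleus labelled KO gave 18.5% (quartiles 13.6 and 24.4), against 22.1% in myocyte, 4.28% in lymphocyte and 4.12% in myeloid nuclei. Myeloid and endothelial medians of the library labelled WT were close, at 14.7% and 15.3%. The quartiles of adipocytes and lymphocytes did not overlap in either library. Over 4 bins of adipocyte nuclei by UMI total, Malat1 took between 30.5% and 33.1% in the library labelled WT and between 19.2% and 20.4% in that labelled KO. In myeloid nuclei labelled WT it climbed with depth, from 12.6% in the shallowest bin to 24.5% in the deepest.

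**Figure D2:**
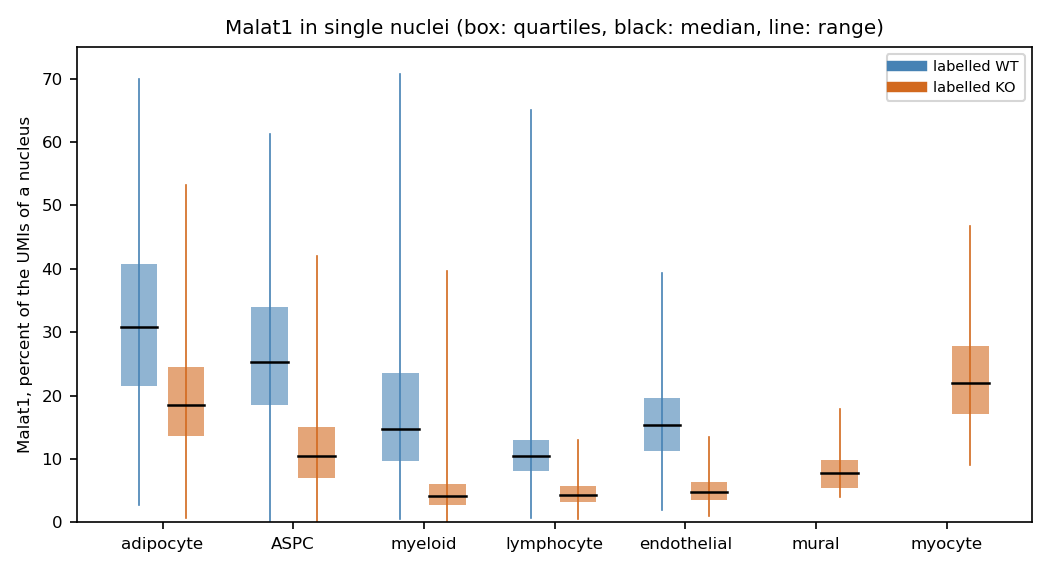
Percent of each nucleus's UMIs that came from Malat1, by class and library; the boxes give the quartiles and the median over nuclei. The median adipocyte nucleus lies at 30.9% in the library labelled WT and 18.5% in that labelled KO, and the lowest medians are those of lymphocytes labelled WT (10.5%) and of myeloid nuclei labelled KO (4.12%); the thin lines run from the lowest to the highest nucleus.

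Neat1, the paraspeckle scaffold, also had counts in every class but was more concentrated in adipocytes than Malat1. Its level in the library labelled WT was 9928 CPM in adipocytes, 3332 in myeloid, 2313 in ASPC, 1643 in endothelial and 629 in lymphocyte nuclei. In the library labelled KO it was 5753 CPM in adipocytes, 5587 in myocytes, 1795 in myeloid, 1048 in ASPC, 910 in endothelial, 478 in mural and 378 in lymphocyte nuclei. Barcodes under 500 genes, which were not kept, had 1036 CPM labelled WT and 435 CPM labelled KO. Both values lie above the lymphocyte level of the same library, so the lymphocyte counts are not read as expression. Adipocytes and myocytes of the library labelled KO did not differ beyond counting error (ratio 1.03, 0.978 to 1.09). Nuclei with at least 1000 UMIs were thinned to 1000 UMIs, and shallower nuclei were left out. This removed 10 adipocyte and 1021 of 2101 lymphocyte nuclei labelled WT, and 5 and 15 labelled KO. Of the nuclei left, 97.3% of adipocytes labelled WT and 97.1% of those labelled KO had a Neat1 UMI, against 43.6% and 29.5% of lymphocytes. Across the adipocyte nuclei of the library labelled WT, the percents of Malat1 and Neat1 ran in opposite directions (Spearman's rho -0.44 over 418 nuclei, which share a library and a total that both percents are taken from), and in the library labelled KO rho was -0.14 over 895 nuclei.

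Kcnq1ot1, the imprinted antisense RNA of the Kcnq1 domain, was present in every class. Levels in the library labelled WT ran from 1512 CPM in adipocytes through 1328 in ASPC, 1189 in lymphocyte and 852 in myeloid to 669 in endothelial nuclei. The library labelled KO gave 571 CPM in ASPC, 552 in myocytes, 485 in mural, 435 in adipocyte and 408 in endothelial nuclei, of which no neighbours differed beyond counting error, and 242 in lymphocyte and 225 in myeloid nuclei. The level moved with depth in adipocytes, from 1003 CPM in the shallowest of 4 bins of nuclei to 1781 CPM in the deepest in the library labelled WT and from 224 to 554 CPM in that labelled KO. The part of depth in the class order of Malat1 or Kcnq1ot1 was not tested. Kcnq1, whose span holds Kcnq1ot1, had 0 adipocyte counts labelled WT and 49 labelled KO. Genes with over 100000 intronic bases had a median log2 ratio of 1.39 between the libraries in adipocytes. The part of gene length in the Kcnq1 counts was not tested.

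Meg3, the maternally expressed RNA of the Dlk1-Dio3 domain, was an RNA of stromal cells and not of adipocytes. ASPC stood at 2235 CPM labelled WT and 1843 CPM labelled KO, and mural nuclei labelled KO at 3182 CPM. Adipocytes had 92.2 CPM (180 counts) and 7.40 CPM (64 counts). Relative to all other nuclei, adipocytes stood at 0.230 times (0.197 to 0.269) in the library labelled WT and at 0.00779 times (0.00599 to 0.00996) in that labelled KO. At 1000 UMIs per nucleus, Meg3 was detected in 55.2% of ASPC labelled WT, 63.7% of ASPC labelled KO and 80.5% of mural nuclei. The same share in lymphocyte nuclei, the class with the lowest level in both libraries, was 1.48% (median depth 1009 UMIs) and 0 of 95 nuclei (median depth 2048 UMIs). In adipocytes it was 2.70% (median depth 3652 UMIs) and 0.449% (median depth 7852 UMIs).

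Markers of ASPC moved with Meg3 inside the adipocyte class. In the library labelled WT, the 29 adipocyte nuclei with a Meg3 UMI had 5836 CPM of the 14 ASPC markers, and the 389 without had 1139 CPM. In the library labelled KO these values were 958 and 665 CPM. Over the whole adipocyte class all 14 ASPC markers had a count in both libraries, with a summed level of 1618 CPM labelled WT and 679 CPM labelled KO, and their part in the Meg3 level was not tested. Mirg, a microRNA host transcript of the same imprinted domain, was highest in the same classes: 48.4 and 38.0 CPM in ASPC, 71.3 CPM in mural nuclei, and 2 and 0 counts in adipocytes. The 29 Meg3 counts of endothelial nuclei labelled KO came from 4 nuclei, of which 1 held 26.

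Snhg11 and A930028N01Rik were adipocyte RNAs in both libraries. The term was used where the adipocyte level was at least 2 times that of all other kept nuclei, the lower limit of the ratio was over 1 and no other class of at least 20 nuclei was higher. Of genes with at least 50 counts, 9.94% reached the ratio of 2 in the library labelled WT and 13.6% in that labelled KO. Since the members were listed for this pattern, nothing is read from their count against that share.

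Snhg11 had 1228 CPM in adipocytes of the library labelled WT against 104 in ASPC, 23.9 in endothelial, 20.3 in myeloid and 14.4 in lymphocyte nuclei. The library labelled KO had 873 CPM in adipocytes, 40.7 in ASPC, and 8.68 CPM or less in each other class. The ratio of adipocytes to other nuclei was 39.8 (33.6 to 47.4) and 37.3 (31.9 to 43.8). The other nuclei differed in make-up, with 2101 lymphocytes among 3085 labelled WT and 110 among 1957 labelled KO, so these ratios are not compared between libraries. Over ASPC alone, adipocytes stood 11.9 times (9.46 to 15.1) higher labelled WT and 21.4 times (18.1 to 25.6) labelled KO. At 1000 UMIs, 57.6% and 52.1% of adipocyte nuclei had a Snhg11 UMI, against 1.02% and 1.05% of lymphocyte nuclei, and the share in ASPC was 5.79% and 4.59%. Barcodes under 500 genes, which were not kept, had Snhg11 at 59.4 and 24.9 CPM. Each class described other than adipocytes and ASPC lay below these values, so its Snhg11 counts are not read as expression.

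A930028N01Rik was nearly confined to adipocytes in both libraries. It had 269 counts (138 CPM) in adipocytes of the library labelled WT and 6 counts in all other nuclei, and 931 counts (108 CPM) and 7 counts in the library labelled KO. Adipocytes were 107 times (48.6 to 294) and 107 times (51.8 to 267) above other nuclei; the log2 ratio labelled WT, 6.74, fell to 5.49 with at least 1000 genes per nucleus and to 4.61 with at most 1% mitochondrial counts. The largest level elsewhere was in endothelial nuclei, with 2 and 4 counts. At 1000 UMIs it was detected in 16.2% and 10.4% of adipocyte nuclei, against 0.185% (2 of 1080) and 0 of 95 lymphocyte nuclei.

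**Figure D3:**
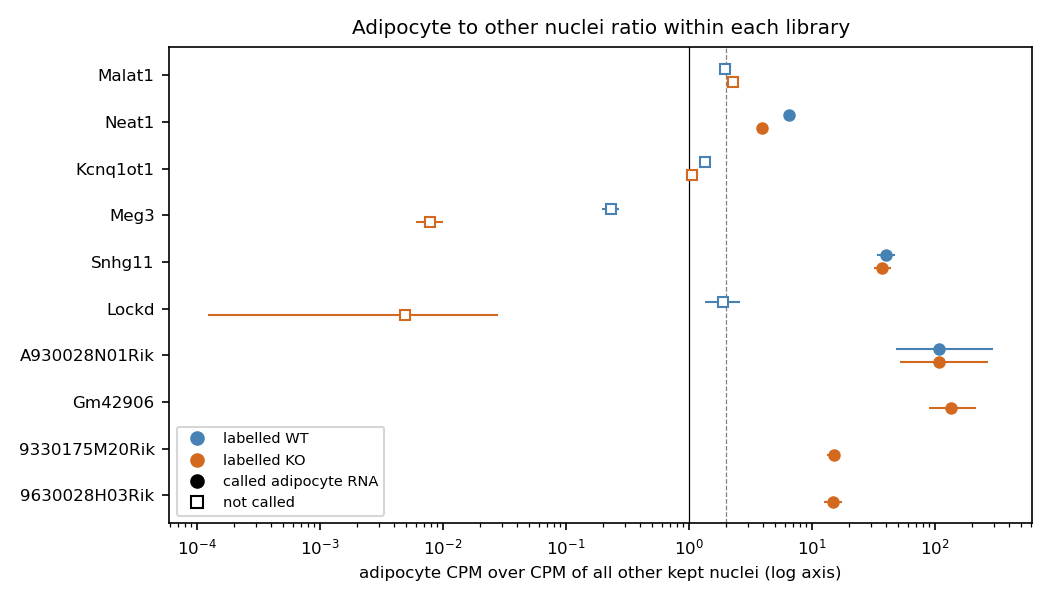
Ratio of the adipocyte level to that of all other kept nuclei for each RNA and library, on a log axis with exact 95% counting intervals and a line at 2. A930028N01Rik stands at 107 in both libraries and Meg3 under 1 in both, while Malat1 stands at 1.97 in the library labelled WT, just under the line, and at 2.29 in the library labelled KO, where myocytes were higher.

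By this rule 3 members were adipocyte RNAs in the library labelled WT (Neat1, Snhg11 and A930028N01Rik) and 6 in the library labelled KO (these and Gm42906, 9330175M20Rik and 9630028H03Rik). The lowest ratio inside was that of Neat1, 6.52 (6.35 to 6.70) and 3.89 (3.81 to 3.98). Just outside in the library labelled WT were Malat1 at 1.97 (1.96 to 1.98) and Lockd at 1.88 (1.35 to 2.60). Under each of 3 other scalings both passed, and the number became 5. Lockd passed through 1 nucleus, which held 60 of its 70 adipocyte counts. Without that nucleus its level, scaled to all UMIs, was 5.14 CPM, under the 19.1 CPM of other nuclei. Malat1, Neat1 and Kcnq1ot1 were the members with at least 3 counts in every class of at least 20 nuclei of both libraries. Kcnq1ot1 had a ratio of 1.36 (1.30 to 1.42) labelled WT and 1.05 (1.00 to 1.10) labelled KO.

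Gm42906, 9330175M20Rik and 9630028H03Rik were found almost wholly in the library labelled KO. Gm42906 had 1 count in adipocytes labelled WT and 3860 (446 CPM) in adipocytes labelled KO, a ratio of 871 (156 to 34419). 9330175M20Rik had 2 and 5169 counts (597 CPM labelled KO), a ratio of 583 (161 to 4818). 9630028H03Rik had 1 and 2690 counts (311 CPM labelled KO), a ratio of 607 (109 to 23989). None of the 3 had more than 1 count over all other nuclei of the library labelled WT.

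The counts labelled KO were spread over many adipocyte nuclei. Gm42906 had a UMI in 442 of 895 nuclei with at most 84 counts in 1 nucleus, 9330175M20Rik in 775 with at most 49, and 9630028H03Rik in 562 with at most 45. At 1000 UMIs the shares were 18.7%, 39.6% and 22.4%, against 0 of 408 adipocyte nuclei labelled WT, where 3 counts in place of 0 would give a share of nuclei with a UMI of up to 0.735%. In lymphocyte nuclei labelled KO they were detected in 1, 0 and 0 of 95 nuclei.

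Their class patterns in the library labelled KO differed. Gm42906 was nearly confined to adipocytes, at 135 times (89.9 to 213) the level of other nuclei and with no more than 11 counts in any other class. 9330175M20Rik was 15.0 times (13.3 to 17.0) higher in adipocytes than in other nuclei, yet endothelial nuclei had 518 CPM against 597 CPM in adipocytes, a ratio of 1.15 (0.967 to 1.39) that did not differ beyond counting error. Mural nuclei had 143 CPM of it and ASPC 38.0 CPM, and at 1000 UMIs it was detected in 33.3% of endothelial nuclei. 9630028H03Rik was 14.7 times (12.5 to 17.5) higher in adipocytes, with 135 CPM in endothelial, 23.9 in myeloid and 14.2 in ASPC nuclei. Within myeloid nuclei it had 54.1 CPM in cluster 9 and 7.79 CPM in cluster 3. The 25 myeloid nuclei of cluster 7 had 82.3 CPM (17.0 to 240), on 3 counts.

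Cavin2, in the span of 9330175M20Rik, had the same leading classes in the library labelled KO, with 420 CPM in endothelial, 366 CPM in adipocyte and 143 CPM in mural nuclei; it was picked after its values were seen. It was just as present in the library labelled WT, at 532 CPM in endothelial and 478 CPM in adipocyte nuclei, where 9330175M20Rik had 0 and 2 counts.

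Lockd was a rare RNA whose adipocyte level rested on 1 nucleus. Adipocytes labelled WT had 70 counts (35.8 CPM), of which 60 were in 1 of the 11 nuclei with a UMI, and adipocytes labelled KO had 1 count. That nucleus had 8360 UMIs, 75 counts of adipocyte markers, 3 of ASPC markers and 0 of both the 6 dividing-cell markers and Cdkn1b. Without it adipocytes labelled WT had 10 counts (5.14 CPM), below the 28.9 CPM of lymphocyte nuclei. Those 74 lymphocyte counts came from 64 nuclei with at most 3 each.

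In the library labelled WT, Lockd was highest in lymphocyte nuclei with dividing-cell markers. Cluster 13 of the library labelled WT, a lymphocyte cluster in which all 6 dividing-cell markers passed, had 34 counts in 87 nuclei (194 CPM, 135 to 272). The other lymphocyte clusters of that library had 11.1 CPM (cluster 0) and 24.1 CPM (cluster 2), with intervals that lay below it. The class of the cluster with dividing-cell markers depended on the setting. It was named myeloid at a resolution of 1.0 and stayed unnamed with at least 1000 genes. The library labelled KO had 46.7 CPM in lymphocyte, 36.6 in myeloid and 15.1 in ASPC nuclei. Its highest cluster, lymphocyte cluster 14, had 61.4 CPM (28.1 to 117) and passed 0 of the dividing-cell markers. The 101 myeloid counts came from 32 nuclei, of which 3 held 29, and 90 of them were in cluster 3, at 50.1 CPM against 12.1 CPM in cluster 9. In ASPC labelled KO 3 nuclei held 29 of the 50 counts.

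Set against each other, the adipocytes of both libraries differed in all 10 members beyond counting error when scaled to all UMIs. Malat1 was lower in the library labelled KO by a ratio of 0.612 (0.610 to 0.614), Neat1 by 0.580 (0.570 to 0.589), Snhg11 by 0.711 (0.679 to 0.744) and A930028N01Rik by 0.781 (0.681 to 0.898). Kcnq1ot1 stood at 0.288 (0.274 to 0.302), Meg3 at 0.0803 (0.0594 to 0.107) and Lockd at 0.00322 (8.1e-05 to 0.0186), or at 0.0225 (5.2e-04 to 0.158) without the nucleus named above. The log2 ratio of Meg3, -3.64, became -1.90 with doublets left in, where its level labelled KO went from 0.00074% to 0.0025% of UMIs, and -2.64 with at most 1% mitochondrial counts, where its level labelled WT went from 0.0092% to 0.0040%. Without the nucleus richest in 9330175M20Rik in the library labelled WT, the ratio of that RNA was 1163 (209 to 45933). Thus 3 members were at least 2 times higher, 3 at most 0.5 times and 4 in between. Among the 11359 genes with at least 50 counts in adipocytes, 25.9% were at least 2 times higher and 17.6% at most 0.5 times. The median log2 ratio of these genes was -0.05 when scaled to all UMIs and 0.24 under TMM scaling. It was -0.30 when Malat1 and the mitochondrial genes were left out of the totals. Of the 7 lower members, 6 stayed lower beyond counting error under each scaling tried. The difference in A930028N01Rik was lost within counting error under TMM (0.957, 0.834 to 1.10) and median-of-ratios scaling (0.954, 0.832 to 1.10). Malat1, Neat1 and Snhg11 turned when measured from genes of like intronic length.

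Markers of other classes moved with the library inside the adipocyte class as well. All 16 lymphocyte markers had a count in adipocytes of both libraries, with a summed level of 833 CPM labelled WT and 148 CPM labelled KO, and all 6 dividing-cell markers, with 70.2 and 10.3 CPM. Endothelial markers (12 and 11 of 12 with a count) stood at 116 and 66.1 CPM, myeloid markers (15 and 14 of 15) at 381 and 332 CPM and mural markers (9 and 10 of 10) at 323 and 276 CPM. Higher labelled KO were myocyte markers (2 and 9 of 10), at 24.6 and 88.8 CPM, and epithelial markers (5 and 3 of 8), at 16.4 and 66.2 CPM. So were Schwann cell markers (4 and 6 of 6), at 206.9 and 286.5 CPM. Their part in the ratios of Kcnq1ot1, Lockd and the other members was not tested.

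The other classes gave the same direction for Malat1, Neat1 and Kcnq1ot1, which had counts in every class. The log2 ratio of Malat1 was -0.71 in adipocytes, -1.21 in ASPC (cluster 8 labelled WT against 5 and 6 labelled KO), -2.09 in myeloid (7 and 12 against 3 and 9), -1.32 in lymphocyte (0, 2 and 13 against 14 and 17) and -1.39 in endothelial nuclei (cluster 10 in both). Neat1 ranged from -1.14 in ASPC to -0.74 in lymphocyte nuclei, where it turned to 0.31 when each library was clustered alone. The lymphocyte ratios of Neat1 and Malat1 and the endothelial ratio of Malat1 include counts that are not read as expression. Kcnq1ot1 ranged from -2.30 in lymphocyte to -0.71 in endothelial nuclei. Endothelial nuclei, all of which lay in cluster 10 in both libraries, had all 3 lower in the library labelled KO.

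The remaining members had class-bound differences. Meg3 was at 0.825 times (0.781 to 0.871) in ASPC, the class that carries it, against 0.0803 times in adipocytes and 0.153 times (0.0879 to 0.260) in myeloid nuclei. In endothelial nuclei it was 4.95 times (1.74 to 19.4) higher labelled KO, on 4 against 29 counts, most of the 29 in 1 nucleus. Snhg11 was at 0.394 times (0.295 to 0.528) in ASPC. Lockd was 3.60 times (1.82 to 8.10) higher in myeloid nuclei labelled KO, a direction that turned with the clustering and the depth filter, and was within counting error in ASPC (2.25, 0.901 to 7.21) and lymphocytes (1.62, 0.774 to 3.07). 9330175M20Rik had 0 against 127 counts in endothelial and 0 against 126 counts in ASPC, and 9630028H03Rik 0 against 66 counts in myeloid nuclei. Set against a floor of 3 counts in the class labelled WT, these levels stood 28.9, 9.43 and 7.06 times higher. The exact 95% lower limits of these ratios were 23.2, 7.56 and 5.58.

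**Figure D4:**
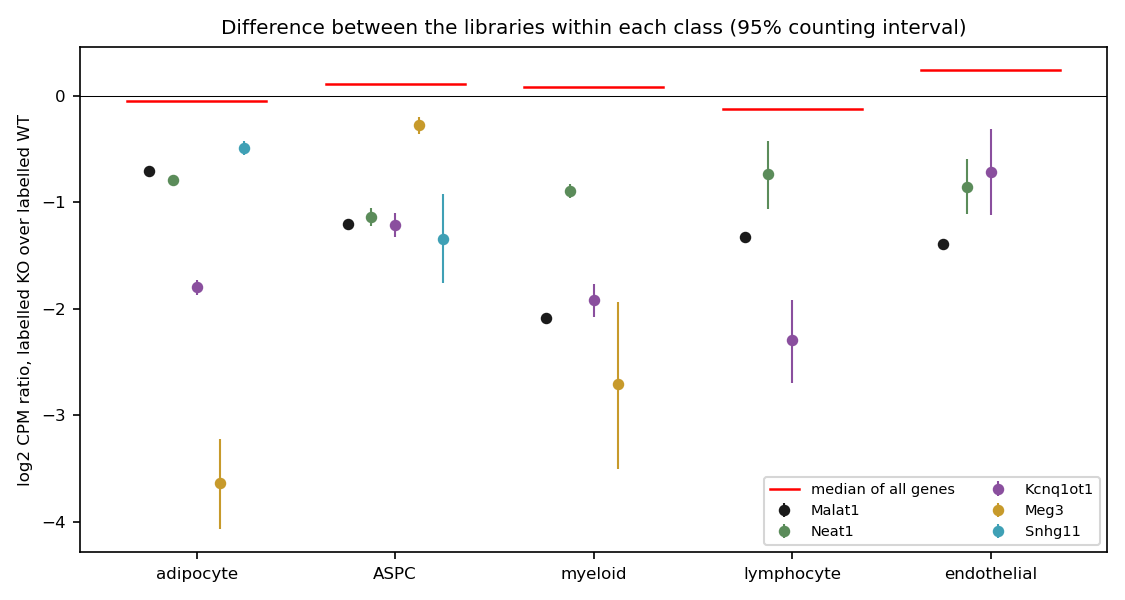
log2 ratio of CPM, labelled KO over labelled WT, by class for Malat1, Neat1, Kcnq1ot1, Meg3 and Snhg11 where a class had at least 50 counts, with exact 95% counting intervals; the red mark is the median of all genes of the class. All points of Malat1, Neat1 and Kcnq1ot1 lie under 0 and under the red mark. However, Neat1 in lymphocytes turned to 0.31 when each library was clustered alone. The correction for intronic length turned Malat1 and Neat1 in adipocytes.

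Counted by class, of 7 members with at least 50 counts in ASPC 2 were at least 2 times higher and 4 at most 0.5 times, where 25.1% and 8.76% of all genes were. Of 6 in myeloid nuclei 2 were higher and 3 lower (24.6% and 12.7% of all genes). Lockd is among the 2 higher members of both classes. Its ratio was within counting error in ASPC, and its direction in myeloid nuclei turned under other settings. Of 4 in lymphocyte nuclei 0 were higher and 2 lower (16.2% and 20.1% of all genes), and of 4 in endothelial nuclei 1 was higher and 1 lower (32.4% and 16.0% of all genes). The class medians of the log2 ratio over all genes lay between -0.12 in lymphocytes and 0.24 in endothelial nuclei.

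The ratio between libraries moved with the length of introns. The median log2 ratio of adipocytes was -0.91 over 1223 genes with up to 3000 intronic bases, -0.60 up to 10000, -0.20 up to 30000, 0.37 up to 100000 and 1.39 over 1391 longer genes, and the order was the same in the 4 other classes. Malat1 and Neat1 have no intron in the models used and Snhg11 has 1987 intronic bases. Measured from the median of genes of like length, the adipocyte log2 ratio turned to 0.20 for Malat1, 0.12 for Neat1 and 0.41 for Snhg11. Malat1 stayed lower by this measure in ASPC (-0.58), myeloid (-1.37), lymphocyte (-0.57) and endothelial nuclei (-0.41). Meg3 stayed at -3.44. No value is given for 9630028H03Rik, whose span of 2691 bases in RefSeq stands against 254499 intronic bases in the model matched by gene ID. Kcnq1ot1, Lockd, A930028N01Rik, Gm42906 and 9330175M20Rik had no length in these models, and its part in their ratios was not tested. Whether reads in introns were counted is not given in the sources used here for either library.

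**Figure D5:**
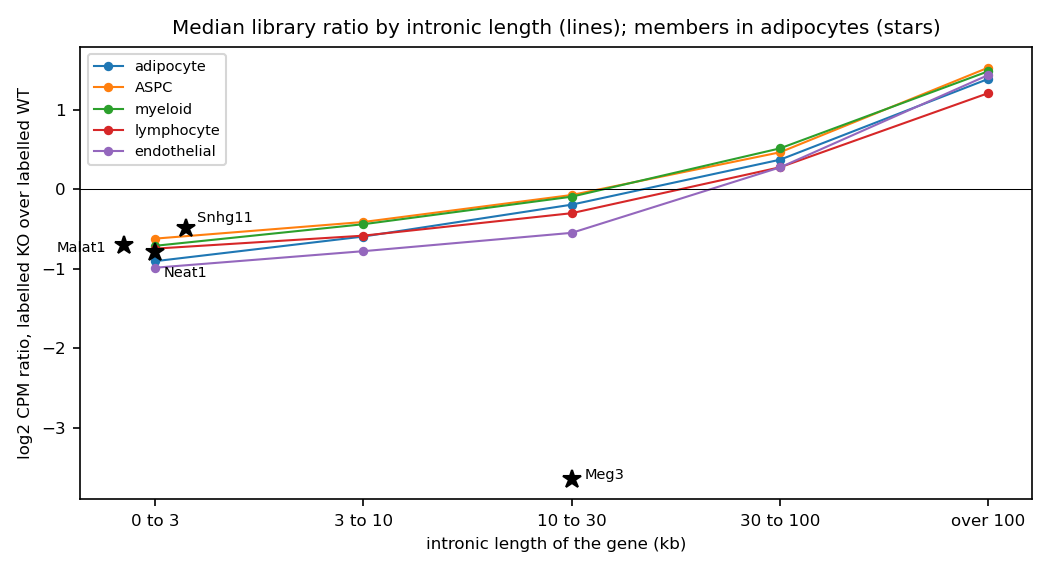
Median log2 ratio of CPM, labelled KO over labelled WT, by range of intronic length for genes with at least 50 counts, with a line for each of the 5 shared classes and stars, drawn beside each other within a range, for the adipocyte values of Malat1, Neat1, Snhg11 and Meg3. The adipocyte medians climb from -0.91 to 1.39, and Malat1, Neat1 and Snhg11 lie under 0 but above the median of their range, so that their direction turns when they are measured from it.

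The members were also counted in the barcodes under 500 genes, which were not kept. Malat1 was 17.4% of their UMIs in the library labelled WT, above its share in kept endothelial and lymphocyte nuclei, and 1.22% in that labelled KO, below every kept class. Its endothelial and lymphocyte counts labelled WT are therefore not read as expression. Meg3 was at 236 and 64.2 CPM there, between its adipocyte and ASPC levels in both libraries. The adipocyte counts of Meg3 are likewise not read as expression.

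Genes around the members and of the bodies they form were described from fixed lists. Of 15 paraspeckle proteins 0 were at least 2 times higher in adipocytes labelled KO and 6 at most 0.5 times, where 25.9% and 17.6% of all genes were, with a median log2 ratio of -0.74. Ewsr1 stood at 0.455 times, Sfpq, a core paraspeckle protein, at 0.617 times and Taf15 at 0.973 times (0.885 to 1.07). Of 15 nuclear speckle proteins 0 were higher and 10 lower, with a median of -1.06, among them the speckle scaffolds Son at 0.382 times and Srrm2 at 0.306 times, the kinase Prpf4b at 0.294 times, and Srsf11 at 0.730 times. The median over all genes was -0.05. Measured from genes of like intronic length, a measure added after seeing the data, the median was -0.44 for the paraspeckle and -0.53 for the speckle list, with 1 higher and 2 lower and with 1 higher and 4 lower. In adipocytes, 0 of 15 paraspeckle proteins reached 2 times the level of other nuclei in the library labelled WT and 1 of 15 in the library labelled KO, and 0 of 15 speckle proteins did in either, where 9.94% and 13.6% of all genes did.

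Of 47 other long noncoding RNAs listed, 23 had a row and 16 had at least 50 adipocyte counts. Of these 4 were at least 2 times higher and 2 at most 0.5 times, shares near the 25.9% and 17.6% of all genes. Their median log2 ratio was -0.44. For the 11 with an intronic length, the median turned from -0.31 to 0.31 when measured from genes of like length, with 3 higher and 0 lower. Airn, the imprinted antisense RNA of Igf2r, stood at 10.8 times (7.55 to 15.9), Lncpint at 3.19 times (2.79 to 3.65), Gm26917 at 0.312 times and Snhg20 at 0.663 times. Adipocytes were at least 2 times above other nuclei for 1 of 16 in the library labelled WT and 3 of 18 in the library labelled KO (9.94% and 13.6% of all genes). Of the genes next to the members, 6 had at least 50 counts, with 0 higher and 1 at most 0.5 times. Ltbp3, a binding protein of latent TGF-beta and a neighbour of Malat1, was 6.27 and 4.04 times higher in adipocytes than in other nuclei, close to Neat1.

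Patterns over classes were compared by Pearson's r of log2(CPM + 1) over 12 pools of a class and a library, among 7566 genes. The pools share libraries, and r is a description. The genes most like Meg3 were Pla1a (0.97), Pdgfrb (0.94), a receptor of mural and stromal cells, and Runx1t1 (0.93). Those most like A930028N01Rik were Thrsp (0.93), a lipogenic gene, Efcab8 (0.92) and Pnpla2 (0.91), the triglyceride lipase ATGL and 1 of the adipocyte markers used to name the class. Snhg11 was closest to Golgb1 (0.95), Slc1a5 (0.95) and Gm3289 (0.93). Lockd was closest to Nmd3 (0.89), Ythdf1 (0.89) and Top2a (0.88), a topoisomerase of dividing cells. These values include the pool of adipocytes labelled WT, where 1 nucleus held 60 of the 70 Lockd counts.

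Neat1 was closest to Zfp770 (0.93), Cpeb4 (0.89) and Gm7480 (0.88), Malat1 to Dctn4 (0.91), Abhd14b (0.90) and Med21 (0.89), and Kcnq1ot1 to Tmem161a (0.92), E530011L22Rik (0.90) and Fastk (0.88). Gm42906 had Trpc4 (0.97), Cyp2e1 (0.93) and Gm29669 (0.93), 9330175M20Rik had Gm26883 (0.93), Gm15581 (0.93) and Clstn2 (0.92), and 9630028H03Rik had Trpc4 (0.91), 4930545L23Rik (0.91) and Mt1 (0.90).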

How the data were processed

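The authors deposited a matrix of UMI counts for each library, made with Cell Ranger (6.1.1 per the file headers), and the submitters' processing notes name mm10 and Seurat 4. The annotation release, intronic counting and removal of free RNA are not given in the sources used here. The members and lists were chosen with earlier results of these data known. Each library held 5000 barcodes (9376351 counts labelled WT, 19655049 labelled KO). Barcodes with under 500 genes (447 and 1448) or over 5% mitochondrial counts (904 and 608) were left out. Doublets were scored with Scrublet in scanpy 1.11.5, which marked 92 nuclei labelled KO and 0 labelled WT, where the highest 4% of scores (146) were removed instead. The merged counts were clustered in Seurat 5.3.0 (R 4.3.3) on 2000 variable genes, 20 principal components, 20 neighbours and a resolution of 0.5, with no batch correction. A cluster was named where at least 3 markers of a class passed (a UMI in at least 5% of nuclei and at least 2 times the mean of other clusters) with a lead of 3 over the next class; 1 cluster stayed unnamed. Levels and shares have exact Clopper-Pearson and CPM ratios exact conditional binomial intervals at 95%, and a count of 0 allows 3 counts. The PCR copies are collapsed by UMI, so the intervals cover counting error of molecules only. The ratio intervals were checked on simulated counts. Named genes were all 10 members, the 4 genes of each list with the most adipocyte counts and the 3 genes most like each member among genes with at least 500 counts, of which some are not reported here. Scalings were TMM (edgeR 4.0.16), median of ratios, and totals without mitochondrial genes and Malat1. Intronic lengths came from gene models of another build and were used for lengths only. The 45 alternatives tried were changes of filters, doublets, clustering, scaling, thinning and intronic length.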

Additional observations from a re-analysis of the deposited data

Results flagged for a closer look

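Lockd moved in opposite directions in 2 classes. The level labelled KO was 0.00322 times that labelled WT in adipocytes and 3.60 times in myeloid nuclei, and the difference between the classes was not tested. In adipocytes 1 nucleus labelled WT held 60 of the 70 counts. The myeloid direction turned when the libraries were clustered alone.

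Gm42906 had 14 counts in the barcodes under 500 genes of the library labelled KO, which entered no ratio between the libraries, and 0 in those of the library labelled WT. The same barcodes held 11 counts of 9330175M20Rik and 8 of 9630028H03Rik in the library labelled KO and 0 of each in the library labelled WT.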

How the results depend on the processing

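The adipocyte share of Malat1, 32.4% labelled WT, became 31.8% with at least 1000 genes per nucleus, 33.2% with at most 1% mitochondrial counts, 31.5% with doublets left in, 32.3% with each library clustered alone and 31.8% as a mean over nuclei. The share labelled KO, 19.9%, stayed at 19.9% (19.88), and became 20.5%, 19.5% and 19.4% under the first 3 and the last of these. The log2 ratio of Malat1 in adipocytes, -0.71, became -0.68 with at least 1000 genes, -0.70 with at most 1% mitochondrial counts, -0.69 with doublets left in, -0.70 with libraries clustered alone, -0.96 without mitochondrial genes and Malat1 in the total, and -0.42 under both TMM and median-of-ratios scaling.

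Measured from genes of like intronic length, the log2 ratio turned to 0.20 (Malat1), 0.12 (Neat1) and 0.41 (Snhg11) in adipocytes. For Neat1 the difference was lost within counting error in lymphocyte (0.013, -0.31 to 0.32) and endothelial nuclei (0.14, -0.13 to 0.40). With libraries clustered alone the log2 ratio turned to 0.31 for Neat1 in lymphocytes and -1.66 for Lockd in myeloid nuclei. Lockd there turned to -0.45 with at least 1000 genes and -0.13 at a resolution of 1.0. Beyond what these settings themselves change, the cause was not tested.

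Genes at least 2 times higher labelled KO, 2946 in adipocytes, became 7475 with no filter on counts. The split of 2946 higher to 2000 lower became 3551 to 1108 under TMM. It turned to 2465 to 2970 without mitochondrial genes and Malat1 in the total. Genes at most 0.5 times, 2000, became 1108 under TMM, 1115 under median of ratios, 3350 with at least 10 counts and 5304 with no filter. Genes at least 2 times higher in adipocytes than in other nuclei, 1088 labelled WT, became 1663, 1699, 1754 and 3276 under these settings, and 1824 labelled KO became 4327 with no filter. Members called adipocyte RNAs labelled WT rose from 3 to 5 under each of the 3 scalings, with Lockd among the 5 through 1 nucleus, and stayed at 6 labelled KO. Leaving out the nucleus with most counts was chosen after seeing the data. The adipocyte log2 ratio to other nuclei became -2.89 and -3.83 from -2.12 for Meg3 and 4.69 and 4.63 from 5.32 for Snhg11, both labelled WT, with at least 1000 genes and at most 1% mitochondrial counts, and labelled KO -5.24 from -7.00 for Meg3 with doublets left in and 4.55 from 3.88 for 9630028H03Rik with at most 1% mitochondrial counts. Of ratios between libraries in a class, 229 values stayed within their counting interval, 99 moved in the same direction and 9 reversed in sign.

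No paired analysis was possible because each genotype had 1 library. The sum of counts limits the rare members: Lockd, Gm42906, 9330175M20Rik and 9630028H03Rik had 1 to 70 adipocyte counts in 1 library, and their ratios span wide intervals. Pooled mice, genotype, depth and preparation cannot be told apart between the libraries.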

Other observations

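The cluster of 152 nuclei labelled WT that no class name fitted had Malat1 at 26.7% of its UMIs, near the level of ASPC in that library, and Neat1 at 1812 CPM, below that of ASPC, with Meg3 at 27.7 CPM (8 counts). Within myeloid nuclei labelled WT, Malat1 was 17.6% of UMIs in cluster 7, led by Timd4 and Ms4a7, and 30.2% in cluster 12, led by Ccl22 and Apol7c, while Neat1 ran the other way at 3845 and 2036 CPM and Kcnq1ot1 at 968 and 554 CPM. Among lymphocyte nuclei labelled WT, the dividing cluster 13 had Neat1 at 1080 CPM against 574 and 626 CPM in clusters 0 and 2, and Kcnq1ot1 at 1646 CPM against 1078 and 1257 CPM. Meg3 in that cluster had 22 counts (126 CPM) against 12 and 11 counts (8.88 and 10.6 CPM). Kcnq1, the gene around Kcnq1ot1, had 284 counts (103 CPM) in myeloid and 40 counts (285 CPM) in mural nuclei labelled KO, against 5 counts in myeloid nuclei labelled WT. Genes with over 100000 intronic bases had a median log2 ratio of 1.48 between the libraries in myeloid nuclei. The part of gene length in the Kcnq1 counts was not tested.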
